A study of Homo sapiens with 8 samples.

Results

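The T-lineage transcription factors are 38 genes for DNA-binding proteins, and for the ID proteins that restrain some of them, which act in T-cell development. They were picked by gene symbol from a count table of 61228 symbols, and 32 of the 38 had enough counts to be tested among 14243 genes. The cells were RPMI-8402, an established line of T-cell acute lymphoblastic leukaemia, grown without treatment. NKX2-1, a homeobox gene of thyroid and lung development that some T-cell leukaemias switch on ectopically, had been knocked out in 4 clones, named C12, C15, S04 and S36. The 4 wild-type clones were WT10, WT13, WT28 and WT30. The study asked how transcription differs between the groups, and its title links NKX2-1 to RUNX1, a core factor of blood development. Each library is 1 clone, so a difference between clones cannot be told apart from one between single founder cells, and the labels do not say what the letters C and S stand for.

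Thymocytes become T cells in steps that are each set by transcription factors. TCF7 and LEF1, the nuclear partners of Wnt signalling, and BCL11B commit early progenitors to the lineage, while ETS, Ikaros and RUNX proteins keep T-cell enhancers open and ID proteins hold back the E proteins. Factors of other lineages or of earlier progenitors, such as SPI1, BCL11A and MEF2C, are normally silenced on the way, and leukaemic thymocytes often stop at a step where part of this programme is still running.

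Libraries held between 2730285 (C15) and 25423215 (C12) counts, so that a count of 0 allows up to 1.21 CPM (the counts divided by the scaled library total and set to a common size) in C15 and 0.116 in C12, for counting error only. Mitochondrial transcripts took 14.8% to 21.2% of counts in knockout clones, most in C15, and 12.9% to 15.1% in wild-type clones. NKX2-1 mRNA itself had 72 CPM in C12, 11.3 CPM in C15, 83.6 CPM in S04 and 33.4 CPM in S36, with 53.6 to 63.2 CPM in wild-type clones, so it was not lower in every knockout clone (log2 fold change -0.15, SE 0.42, edgeR adjusted p = 0.905). Gene-level counts do not show an edit of the coding sequence and so do not check the labels. Markers of the T lineage summed to 2052 to 2637 CPM in knockout and 2274 to 2685 in wild-type clones, led by CD3D, CD3G and DNTT. LAT and CD1E were listed at 0 in all 8 clones, and ZAP70 and RAG2 were under 1 CPM in each. The sum hides CD5 and CD7, which were lower in every knockout clone than in any wild-type clone. CD5 was at 37.1 to 71.2 CPM in knockout and 84.8 to 116 in wild-type clones, and CD7 at 1.3 to 3.8 and 5.59 to 6.55. The groups overlapped for the other detected T-lineage markers, and did not for 10.1% of all tested genes. All 8 myeloid markers were under 1 CPM in every clone, with LYZ, CD33, CEBPA and ELANE at 0 in all of them, and B-lineage markers summed to 8.88 to 18.6 CPM with MS4A1 at 0. Markers of NK cells summed to 22.9 to 38.8 CPM with FCGR3A at 0, and erythroid markers to 2.83 to 8.67 CPM with GATA1 and the globin genes HBB, HBA1 and HBA2 at 0. None of the 21 tested markers passed between knockout and wild-type clones by edgeR or limma-voom. DESeq2 called 2 of them, and 3.66% of all tested genes. An unadjusted p under 0.05 was found for 4 of them, and for 15.5% of all tested genes. The part of any marker in the results was not tested.

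Promoters were searched because the series title names RUNX1 beside NKX2-1, and 5 of the windows are shown as examples. RefSeq start sites (build GRCh38.p14) were matched for 30 of the 38 factors, and the 250 bases before the most upstream start were searched on both strands for the RUNX core TGTGGT and for the NKX2 words CTCAAG and CAAGTG, which share the letters CAAG. The windows printed here overlap no exon of GENCODE release 29, read 5′ to 3′ on the strand of the gene, and carry matched letters in capitals. IKZF2 has the RUNX core in 2 places, GFI1 and BCL11B each have an NKX2 word (BCL11B on the reverse strand), and SATB1 and NFATC2, for which knockout and wild-type clones did not overlap, have none. ETS2, not shown, also has a RUNX core in a window that overlaps no exon. IKZF1 and ZBTB17 were the other factors whose groups did not overlap. The IKZF1 window has no match and overlaps an exon, and ZBTB17 had no matched start site. The windows are chr2:213152457-213152706 on the minus strand for IKZF2, chr1:92486926-92487175 (minus) for GFI1, chr14:99272198-99272447 (minus) for BCL11B, chr3:18445593-18445842 (minus) for SATB1 and chr20:51562840-51563089 (minus) for NFATC2.
IKZF2: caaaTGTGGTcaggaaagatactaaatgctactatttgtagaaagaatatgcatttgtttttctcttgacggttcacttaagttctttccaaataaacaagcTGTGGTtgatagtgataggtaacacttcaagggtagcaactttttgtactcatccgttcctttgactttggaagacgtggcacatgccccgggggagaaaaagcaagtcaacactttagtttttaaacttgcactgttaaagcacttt
GFI1: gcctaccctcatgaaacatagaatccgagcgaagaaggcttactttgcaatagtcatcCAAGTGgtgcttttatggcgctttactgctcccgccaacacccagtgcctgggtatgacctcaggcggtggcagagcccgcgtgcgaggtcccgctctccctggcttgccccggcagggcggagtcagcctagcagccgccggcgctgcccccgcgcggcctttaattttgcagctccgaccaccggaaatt
BCL11B: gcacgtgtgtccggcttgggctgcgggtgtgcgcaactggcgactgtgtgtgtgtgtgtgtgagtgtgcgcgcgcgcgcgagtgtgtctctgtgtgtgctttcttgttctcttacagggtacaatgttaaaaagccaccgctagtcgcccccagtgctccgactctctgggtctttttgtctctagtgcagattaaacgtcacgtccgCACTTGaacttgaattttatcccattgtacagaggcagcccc
SATB1: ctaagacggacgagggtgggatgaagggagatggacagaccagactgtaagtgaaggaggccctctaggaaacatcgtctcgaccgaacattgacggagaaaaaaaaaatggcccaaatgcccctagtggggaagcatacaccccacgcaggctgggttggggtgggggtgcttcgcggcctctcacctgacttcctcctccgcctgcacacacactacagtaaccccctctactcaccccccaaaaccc
NFATC2: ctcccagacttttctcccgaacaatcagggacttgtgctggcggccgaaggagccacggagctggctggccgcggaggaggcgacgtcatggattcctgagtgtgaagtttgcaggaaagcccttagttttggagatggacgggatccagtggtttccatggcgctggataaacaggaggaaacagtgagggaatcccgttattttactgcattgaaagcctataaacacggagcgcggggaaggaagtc
The RUNX core was present in 3 of the 30 windows (LEF1, ETS2 and IKZF2), or 10%, and in 11.1% of 27305 promoter windows of the same length. An NKX2 word was present in 5 of the 30 (TCF4, BCL11B, IKZF5, GFI1 and MEF2C), or 16.7%, and in 18.4% of all windows. Both shares are near those of all promoters. The TCF4 window overlaps exons of TCF4 and of RPL21P126, a ribosomal protein pseudogene on the other strand. Windows of LEF1, IKZF5 and MEF2C, which also hold a match, overlap annotated exons too. A match is a string of letters and shows no binding.

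The commitment factors TCF7, LEF1 and BCL11B were abundant, and the myeloid factor SPI1 and the CD4-lineage factor ZBTB7B were nearly silent. TCF4, MEF2C and BCL11A lay in between, and the order did not follow lineage throughout. SATB1, a factor of developing thymocytes, lay below TCF4 and MEF2C. Per kilobase of principal transcript, a scale on which genes can be compared, SOX4 came first among wild-type clones at 547 CPM per kb (536 to 563 over the 4 clones). SOX4 is a high-mobility-group factor of early lymphocytes. It was followed by TCF7 at 331, LEF1 at 152 and BCL11B at 92.4 CPM per kb, the last a zinc-finger factor needed to leave the progenitor state. The ranges of these 4 genes over the wild-type clones did not overlap. ETS1 (73.4 CPM per kb) and ETS2 (58.9) had overlapping ranges, and FOXP1, a forkhead repressor, stood alone at 38. From IKZF1 (30.6) through ID2, TOX, ELF1, IKZF2 and ERG to GFI1 (21.6), each factor overlapped the next in the order. ERG, linked to immature T-cell leukaemia, was thus in this block, at 24.2 CPM per kb.

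A middle block held TCF4 at 12.8 CPM per kb, NFATC1, ZBTB17, FLI1, KLF2, NFATC2 and MEF2C (6.83), and then SATB1, EGR1, RARA, TOX2, IKZF5, ID1 and BCL11A between 4.08 and 1.62. FOXO1, ZBTB16, BACH2 and IKZF3 were under 0.5 CPM per kb. By CPM, 12 factors had a wild-type mean of at least 100, 12 of 10 to 100, 5 of 1 to 10 and 9 of under 1. The 6 that were not tested were ID3, ZBTB7B (ThPOK), EGR2, EGR3, SOX13 and SPI1 (PU.1). No clone had over 0.639 CPM of any of these 6, and SPI1 had 3 counts over the knockout clones and 2 over the wild-type clones.

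**Figure D1:**
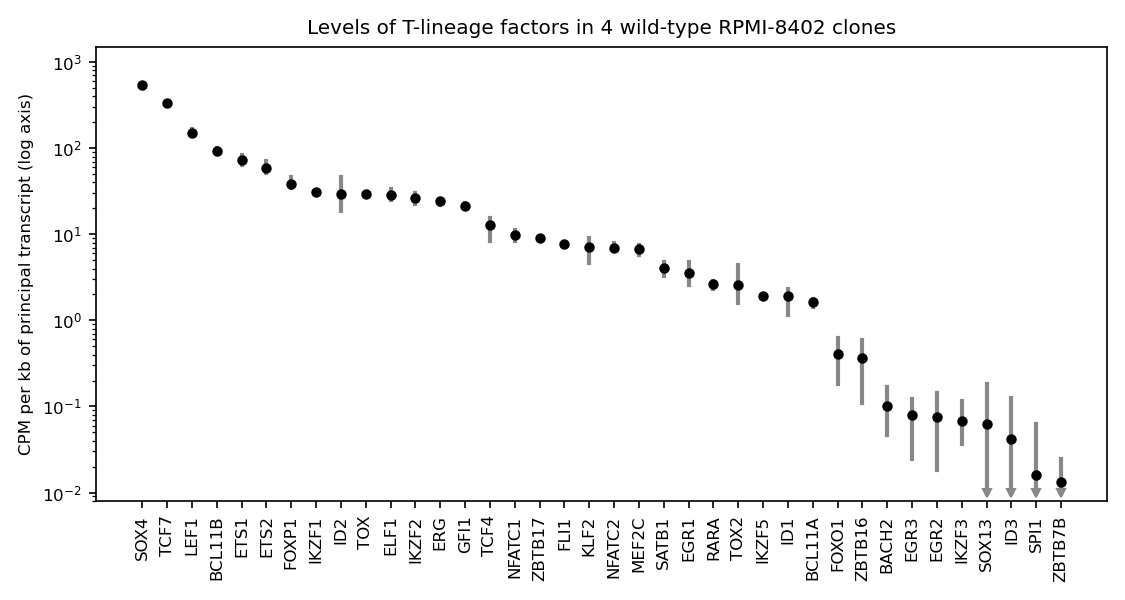
Level of each of the 38 factors in wild-type clones, in CPM per kb of principal transcript on a log axis. Points are means and bars the lowest to highest of 4 clones, with an arrow where the lowest is 0. SOX4, TCF7, LEF1 and BCL11B lead with ranges that do not overlap, and 10 factors lie under 0.5 CPM per kb.

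Between knockout and wild-type clones none of the 32 tested factors passed the edgeR quasi-likelihood test at an adjusted p of 0.05, a threshold that 0.316% of all tested genes passed (45 of 14243). At an unadjusted p under 0.05 there were 7 of 32 factors (21.9%) and 15.5% of all genes. limma-voom also called no factor, and DESeq2 called IKZF1 and TCF4 among the 3.66% of all genes that it called. The median log2 fold change was -0.049 over the factors and 0.02 over all genes, with 14 factors above 0 and 18 below. No factor passed when any single clone was left out, although the count over all genes then ranged from 3 (without WT10, WT13 or WT30) to 456 (without C12). In 4 of the 32 factors the clones of the groups did not overlap, which held for 10.1% of all tested genes.

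IKZF1 encodes Ikaros, a zinc-finger factor of lymphoid identity that is often deleted in acute leukaemia. Among knockout clones C12 had 153 CPM, C15 97.3, S04 120.0 and S36 147, and the wild-type values were 198, 183, 186 and 201 CPM (WT10, WT13, WT28 and WT30). Every knockout clone was below every wild-type clone, with C15 the lowest. On the log2 scale knockout minus wild type was -0.57 (SE 0.16, edgeR adjusted p = 0.152), the smallest adjusted p of the factors. DESeq2 gave a value past the threshold, and over the alternatives the adjusted p ran from 0.0267 to 0.393. In bulk RNA of a clone, less mRNA per cell and fewer cells with the mRNA cannot be told apart. Exons of IKZF1 overlap AC124014.1 on the other strand, and use of strand in counting is not given in the sources used here.

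NFATC2, a factor that calcineurin sends to the nucleus after antigen receptor signalling, was the other factor below the wild-type range in all 4 knockout clones. Among knockout clones C12 had 32.7 CPM, C15 44.4, S04 28.2 and S36 41.8, and the wild-type values were 48.7, 48.7, 51.2 and 58.2 CPM (WT10, WT13, WT28 and WT30). The gap between the groups was small, since C15 at 44.4 lay close to the wild-type minimum. The groups differed by a log2 fold change of -0.51 with SE 0.17 (edgeR adjusted p = 0.2). NFATC2 lies on chromosome 20, whose 376 tested genes had a median difference from the wild-type mean of -0.35 in C12, -0.45 in S04, -0.15 in S36 and 0.043 in C15 on the log2 scale. C12 and S04 were the clones lowest in NFATC2 and those with the lowest chromosome medians. C15 was also below all wild-type clones in NFATC2, at a chromosome median of 0.043. The part of the chromosome in the NFATC2 difference was not tested. With the median of chromosome 20 subtracted, the NFATC2 value was -0.31, for which there is no test.

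SATB1, which folds chromatin at loci of developing thymocytes, was above the wild-type range in all 4 knockout clones. Among knockout clones C12 had 35.3 CPM, C15 30.3, S04 49.6 and S36 29.6, and the wild-type values were 23.6, 27.5, 18.9 and 24.4 CPM (WT10, WT13, WT28 and WT30). S04 was the highest, and S36 and C15 were within a few CPM of WT13. Knockout over wild type came to 0.63 as a log2 fold change, SE 0.20 (edgeR adjusted p = 0.188), with a range over the alternatives of 0.43 to 0.74. Exons of SATB1 and TBC1D5 overlap on the same strand, so reads there cannot be assigned with certainty.

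ZBTB17 encodes Miz-1, a zinc-finger partner of MYC that early T-cell precursors need to survive. Among knockout clones C12 had 26.7 CPM, C15 33.1, S04 37.9 and S36 36, and the wild-type values were 23.6, 25.4, 24.9 and 24.4 CPM (WT10, WT13, WT28 and WT30). The wild-type clones lay close together and C12 was just above them. On the log2 scale knockout minus wild type was 0.44 (SE 0.15, edgeR adjusted p = 0.208). Its exons overlap no other annotated gene.

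**Figure D2:**
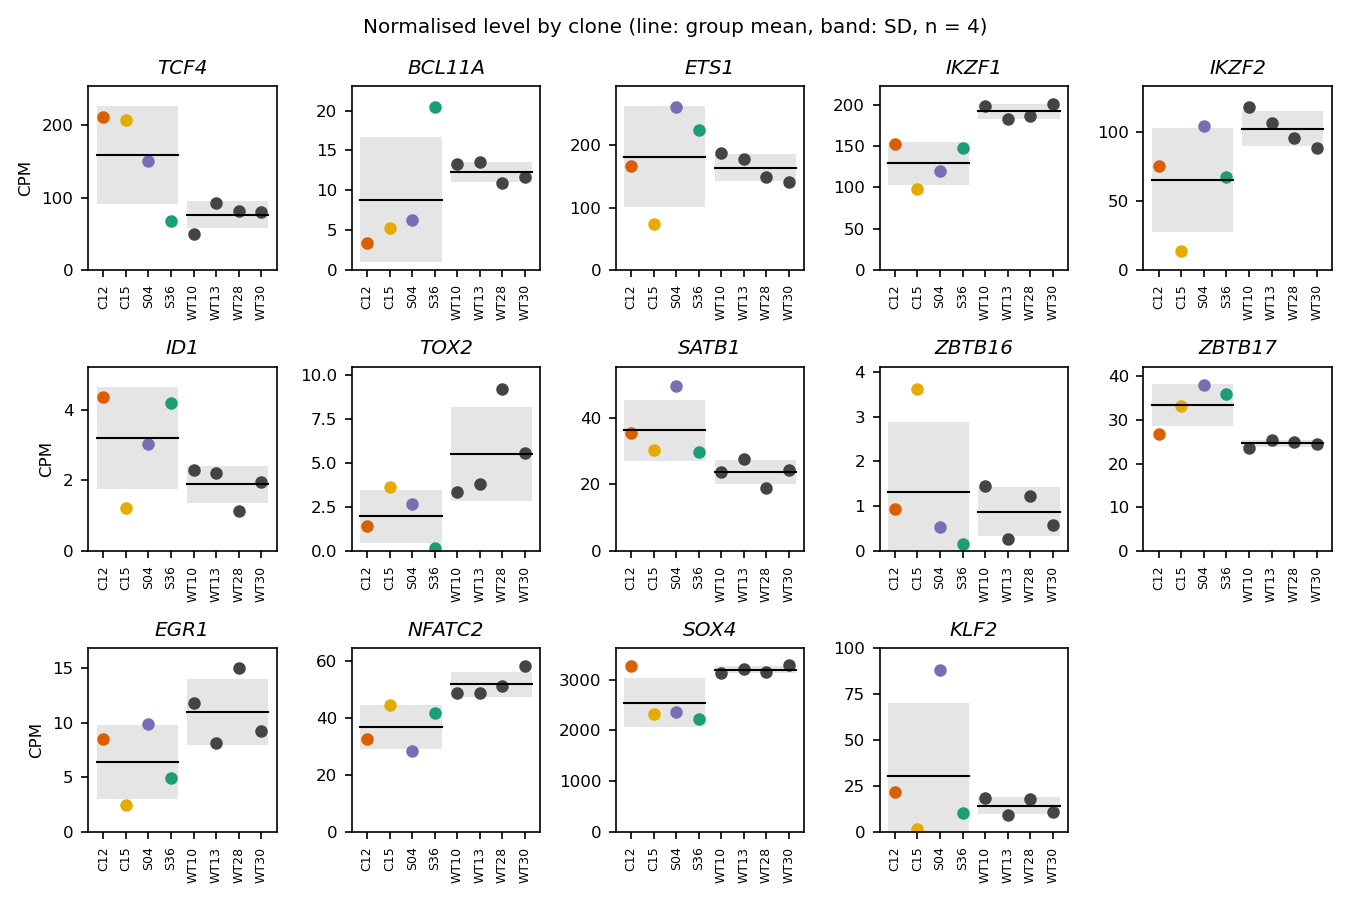
Normalised level in CPM of 14 factors in each clone, with each axis starting at 0. Points are clones, lines are group means and bands the SD (n = 4 each). The groups do not overlap for IKZF1, NFATC2, SATB1 and ZBTB17, and the highest knockout clone is S04 for KLF2, S36 for BCL11A, C15 for ZBTB16 and C12 for SOX4.

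In the TCF and LEF and BCL11 families the fold changes of the T-lineage members TCF7, LEF1 and BCL11B were small, and TCF4 and BCL11A, best known from other lineages, ranged most widely over knockout clones. TCF7 was at 871 to 996 CPM in knockout and 933 to 1059 in wild-type clones (log2 fold change -0.11, SE 0.13), the narrowest spread of all tested factors over knockout clones. LEF1 was at 259 to 477 and 440.3 to 510.1 CPM, with S36 and C15 low and C12 and S04 within the wild-type range (log2 fold change -0.31, SE 0.19). BCL11B was at 516 to 798 and 653 to 767 CPM (log2 fold change -0.054, SE 0.16).

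TCF4, an E protein (E2-2) best known from plasmacytoid dendritic cells and not the Wnt partner TCF7L2, had 212 CPM in C12, 208 CPM in C15, 151 CPM in S04 and 66.9 CPM in S36. Its wild-type values were 49.3, 92.7, 81.9 and 80.2 CPM in WT10, WT13, WT28 and WT30. C12, C15 and S04 exceeded every wild-type clone and S36 lay within their range. The groups differed by a log2 fold change of 1.06 with SE 0.32 (edgeR adjusted p = 0.176), and DESeq2 and the fit without a low-count filter put it past the threshold, with adjusted p from 0.00187 to 0.396 over the alternatives. Its exons overlap RPL21P126 and TCF4-AS2 on the other strand.

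BCL11A, the paralogue of BCL11B that serves B-cell and early progenitors, had 3.36 CPM in C12, 5.25 CPM in C15, 6.22 CPM in S04 and 20.4 CPM in S36, with 13.3, 13.5, 10.9 and 11.7 CPM in WT10, WT13, WT28 and WT30. S36 was above all wild-type clones and the other 3 knockout clones were below them. Their average, -0.45 as a log2 fold change with SE 0.46 (edgeR adjusted p = 0.683), therefore mixes clones on both sides, and without S36 it was -1.35.

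Within the ETS family, whose members bind GGAA cores at T-cell enhancers, no tested member passed between knockout and wild type. ETS1 had 166 CPM in C12, 73.9 CPM in C15, 262 CPM in S04 and 225 CPM in S36, with 187, 178, 149.5 and 141 CPM in WT10, WT13, WT28 and WT30. Both S clones were above the wild-type range and C15 below it, and the average log2 fold change of 0.16 with SE 0.30 (edgeR adjusted p = 0.842) turned to -0.066 without S04. ETS2 was at 187 to 276 CPM in knockout and 201 to 276 in wild-type clones, ERG, an oncogene of immature T-cell leukaemia, at 77.9 to 129 and 108 to 127, and ELF1 at 74.7 to 124 and 90 to 119. FLI1, a haematopoietic member, was at 19 to 38.3 CPM in knockout and 31.2 to 33.5 in wild-type clones. Its SD over knockout clones was 10.9 times that over wild-type clones, the largest ratio of the tested factors. The ratio rests on a small wild-type SD (0.0427 on the log2 scale), and C15, the lowest knockout clone, had only 47 counts.

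IKZF2 encodes Helios, an Ikaros relative of thymocytes and regulatory T cells. Among knockout clones C12 had 75.2 CPM, C15 13.3, S04 104 and S36 67.2, and the wild-type values were 118, 106, 95.6 and 88.4 CPM (WT10, WT13, WT28 and WT30). C15 was far below the other clones, on 33 counts, and S04 lay within the wild-type range. Knockout over wild type came to -0.62 as a log2 fold change, SE 0.41 (edgeR adjusted p = 0.497), and -0.32 without C15. IKZF5 was at 7.14 to 14.4 CPM in knockout and 8.35 to 9.34 in wild-type clones, with S36 the high clone. IKZF3 (Aiolos) had 61 counts over the knockout and 53 over the wild-type clones.

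ID proteins pair with E proteins and keep them off DNA. ID1 had 4.36 CPM in C12, 1.21 CPM in C15, 3.02 CPM in S04 and 4.2 CPM in S36, with 2.29, 2.2, 1.13 and 1.95 CPM in WT10, WT13, WT28 and WT30. C12, S04 and S36 were above the wild-type clones, while the C15 value rests on 3 counts. On the log2 scale knockout minus wild type was 0.86 (SE 0.37, edgeR adjusted p = 0.298). ID2 was at 17.6 to 54.1 CPM in knockout and 25.2 to 62.2 in wild-type clones, the widest log2 spread over wild-type clones of the factors whose wild-type mean was at least 10 CPM.

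TOX2, a high-mobility-group factor of follicular helper and exhausted T cells, had 1.43 CPM in C12, 3.63 CPM in C15, 2.66 CPM in S04 and 0.153 CPM in S36, the last on 2 counts. In WT10, WT13, WT28 and WT30 it was at 3.35, 3.83, 9.25 and 5.59 CPM. C15 lay inside the wild-type range and the other knockout clones below it. The groups differed by a log2 fold change of -1.69 with SE 0.62 (edgeR adjusted p = 0.237), the largest in size of the tested factors. TOX, its relative that CD4-lineage thymocytes need, was at 46.4 to 127 CPM in knockout and 113 to 125 in wild-type clones, with C15 lowest.

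ZBTB16 (PLZF), the factor of innate-like T cells, had 0.926 CPM in C12, 3.63 CPM in C15, 0.543 CPM in S04 and 0.153 CPM in S36, with 1.44, 0.262, 1.23 and 0.577 CPM in WT10, WT13, WT28 and WT30. C15 alone exceeded the wild-type clones, on 9 counts. Knockout over wild type came to 0.047 as a log2 fold change, SE 0.81 (edgeR adjusted p = 0.985), and -0.61 without C15, -0.22 without WT13 and -0.073 without WT30.

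EGR and NFAT factors answer antigen receptor signals. EGR1 had 8.53 CPM in C12, 2.42 CPM in C15, 9.9 CPM in S04 and 4.97 CPM in S36, with 11.8, 8.13, 15 and 9.23 CPM in WT10, WT13, WT28 and WT30. C15 (6 counts) and S36 were below the wild-type range and the other knockout clones within it. On the log2 scale knockout minus wild type was -0.68 (SE 0.35, edgeR adjusted p = 0.373). NFATC1 was at 36.3 to 50.3 CPM in knockout and 38.5 to 52.6 in wild-type clones (log2 fold change -0.04, SE 0.16).

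SOX4 had 3266 CPM in C12, 2321 CPM in C15, 2355 CPM in S04 and 2233 CPM in S36, with 3136, 3216, 3155 and 3296 CPM in WT10, WT13, WT28 and WT30. C12 was within the narrow wild-type range and the other 3 knockout clones were below it. The groups differed by a log2 fold change of -0.33 with SE 0.16 (edgeR adjusted p = 0.355), and -0.48 without C12.

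KLF2, which holds T cells quiescent and drives their exit from the thymus, had 21.5 CPM in C12, 1.61 CPM in C15, 88.4 CPM in S04 and 10.4 CPM in S36, with 18.4, 9.34, 18.1 and 11 CPM in WT10, WT13, WT28 and WT30. S04 was the high clone and C15, on 4 counts, the low one. Knockout over wild type came to 1.15 as a log2 fold change, SE 0.73 (edgeR adjusted p = 0.485) and -0.20 without S04. FOXO1, which can act upstream of KLF2, was at 0.807 to 6.88 CPM in knockout and 1.04 to 3.62 in wild-type clones, with S36 the high clone. FOXP1 was at 107 to 150.3 and 97.2 to 130.3 CPM. GFI1, a zinc-finger repressor, was at 36 to 64.6 and 56.2 to 64.7 CPM, and RARA, a retinoic acid receptor, at 3.67 to 9.24 and 5.1 to 6.35 CPM. BACH2, a repressor of effector genes, was at 0.733 CPM in C12, 1.51 in S04 and 1.91 in S36, with no count in C15, and at 0.42 to 1.51 CPM in wild-type clones.

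**Figure D3:**
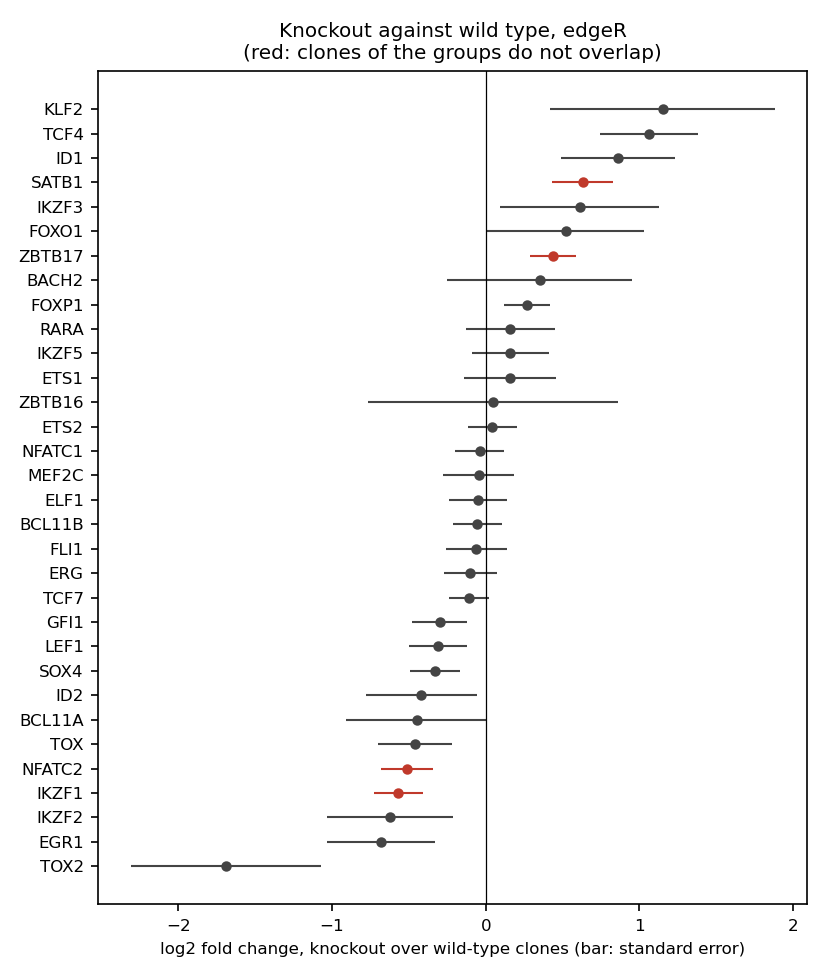
Log2 fold change of the 32 tested factors, knockout over wild-type clones, by edgeR, with its standard error as a bar (n = 4 clones each). Red marks the 4 factors whose groups do not overlap. The values run from -1.69 for TOX2 to 1.15 for KLF2, and none passed at an adjusted p of 0.05.

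The knockout clones differed from each other more than the wild-type clones did. The SD of log2 CPM was larger over knockout clones for 32 of 32 factors, as it was for 88.9% of all tested genes. The median ratio of the SDs was 2.65 for the factors and 2.53 for all genes, so the factors were close to the rest of the table. Depth moved with this, since C15 has the smallest library and is often the extreme clone, and its part was not tested. C15 was outside the wild-type range for 84.4% of the factors, above it for 7 and below it for 20, with a median log2 difference of -0.42. In S36 11 factors were above and 14 below (78.1% outside), in S04 14 and 8 (68.8%) and in C12 8 and 11 (59.4%). Over all tested genes these shares were 77.2% in C15, 73.2% in S36, 73.8% in S04 and 48.6% in C12, and the median log2 difference in C15 was -0.051.

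**Figure D4:**
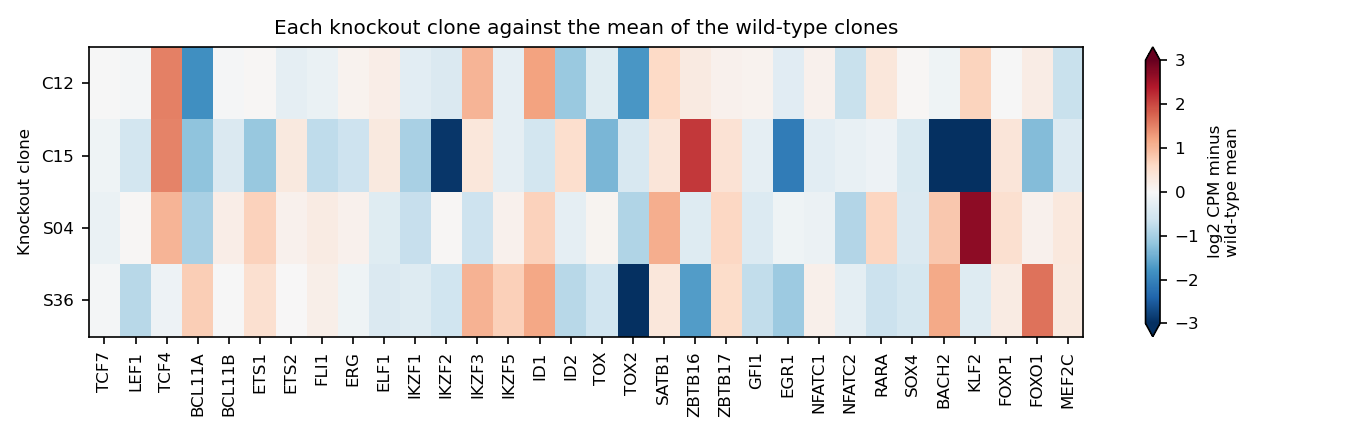
Difference in log2 CPM of each tested factor in each knockout clone from the mean of the 4 wild-type clones. Colours are cut at 3 in either direction. TCF4 is high in C12, C15 and S04, BCL11A is low in the same clones, and TCF7 is near 0 in all 4.

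The pairs of clones with the same letter were then compared in a fit with 3 groups, C, S and wild type, with 2, 2 and 4 clones. In the S clones 1 of the 32 factors passed against wild type, where 9.65% of all tested genes did. limma-voom called the same factor, with 12% of all genes. ZBTB17 rose in the S clones by 1.5-fold (log2 fold change 0.59, SE 0.15, edgeR adjusted p = 0.0413), with S04 and S36 both above all 4 wild-type clones. S and wild-type clones did not overlap for 40% of all tested genes. The ZBTB17 call depended on the clones used. It remained past the threshold without C12 and without C15 but not without S04 (adjusted p 0.0818), without S36 (0.0528) or without any 1 wild-type clone (0.11 to 0.134), and over the alternatives the adjusted p ran from 0.0148 to 0.167. In the C clones ZBTB17 differed from wild type by 0.27 on the log2 scale with SE 0.16 (edgeR adjusted p = 0.755), and the difference between C and S clones was -0.32 (SE 0.18, adjusted p = 0.407).

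The next factors in the S clones did not pass by edgeR, while DESeq2, which called 13.5% of all genes, called GFI1 and SATB1 beside ZBTB17. GFI1 was at 45.5 CPM in S04 and 36 in S36, both below the wild-type minimum of 56.2 (log2 fold change -0.56, SE 0.17, edgeR adjusted p = 0.068). SATB1 had a log2 fold change of 0.75 (SE 0.23, adjusted p = 0.0695), which was 0.33 without S04 (adjusted p = 0.368) and 1.07 without S36. SOX4 had one of -0.48 (SE 0.16, adjusted p = 0.0871). At an unadjusted p under 0.05 there were 9 factors (28.1%) and 27% of all genes. The count past the threshold was 5 without C12 and without C15 (ETS1, GFI1, IKZF1, SOX4 and ZBTB17), where 14.8% and 14.4% of all genes passed. It was 3 without S04 (GFI1, LEF1 and TOX2) and 4 without S36 (KLF2, NFATC2, SATB1 and TCF4), with 9.62% and 11.9% of all genes. In those 2 fits the S arm is 1 clone, whose spread is assumed to be that of the other groups. No factor passed without any 1 of the wild-type clones, where 2.05% to 3.42% of all genes did.

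In the C clones none of the 32 factors passed against wild type by edgeR, where 0.0351% of all tested genes did (5 genes). limma-voom called none, DESeq2 called TCF4 (and 0.562% of all genes), and 7 factors (21.9%) had an unadjusted p under 0.05, against 7.66% of all genes. TCF4 had a log2 fold change of 1.47 (SE 0.31, adjusted p = 0.298) and BCL11A of -1.64 (SE 0.48, adjusted p = 0.51). Without C12 the count was 2 (IKZF1 and IKZF2, with 1.19% of all genes), which then rests on C15 alone, with its spread assumed to be that of the other groups. The C and S comparisons share the 4 wild-type clones, and in S clones TCF4 was at 0.52 on the log2 scale with SE 0.31 (edgeR adjusted p = 0.325) and BCL11A at 0.10 with SE 0.39 (adjusted p = 0.9).

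Between C and S clones directly no factor passed by edgeR, where 0.358% of all tested genes did (51 genes). limma-voom called none, DESeq2 called BCL11A, ELF1 and MEF2C (and 4.57% of all genes), and 8 factors (25%) had an unadjusted p under 0.05, against 17.1% of all genes. MEF2C, an oncogene of immature T-cell leukaemia that was singled out after its values were seen, was at 22.8 CPM in C12 and 27.5 in C15, at 45.3 in S04 and 44.6 in S36, and at 31 to 40.2 in wild-type clones. The C clones were below and the S clones above all wild-type clones, with a log2 fold change of -0.86 for C over S (SE 0.20, edgeR adjusted p = 0.0811). Groups this small often separate: C and S clones did not overlap for 37.2% of all tested genes, and C and wild-type clones for 21.7%. ELF1 had a log2 value of 0.66 (SE 0.17, adjusted p = 0.108) and BCL11A of -1.74 (SE 0.52, adjusted p = 0.146), which was -0.69 without S36. ETS1, with C12 inside the wild-type range and C15 below it, did not pass at a 2-fold difference (SE 0.32 on the log2 scale, adjusted p = 0.164), and its log2 value was -0.56 without C15 and -1.72 without C12. FLI1 had a log2 value of -0.64 (SE 0.20, adjusted p = 0.165), and -0.98 without C12. The factors past the threshold were 3 without C12 (ETS1, FLI1 and IKZF2, with 5.14% of all genes) and 1 without S04 (BCL11A, with 1.01%), fits in which 1 arm is a single clone. ETS1 and FLI1 are neighbours on chromosome 11, at 128458761 to 128587558 and 128686535 to 128813267.

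Some factors lie where many genes of a knockout clone were shifted together. The 81 tested genes within 10 Mb of IKZF2 on chromosome 2 had a median log2 difference from the wild-type mean of -0.38, -0.41, -0.44 and -0.43 in C12, C15, S04 and S36, and at most 0.059 in size in a wild-type clone. IKZF2 itself differed by -0.43, -2.92, 0.032 and -0.59 in the same order, so C12 and S36 were near their neighbourhood, C15 was far below it and S04 above it. With the chromosome median subtracted, knockout over wild type was -0.32 for IKZF2 and -0.15 for BCL11A on the log2 scale, with no test. The neighbours of BCL11A were at -0.33, -0.58, -0.25 and -0.026, while BCL11A was at -1.84, -1.21, -0.97 and 0.73. On chromosome 20 the neighbours of TOX2 were at -0.33, -0.026, -0.32 and -0.31, in clones where TOX2 was far lower except in C15.

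The neighbours of NFATC2 were at -0.33, 0.029, -0.43 and -0.32 in these clones, and NFATC2 was at -0.66, -0.22, -0.87 and -0.30. In S36 it therefore lay at the level of its neighbourhood. Those of IKZF1 were between 0.0097 and 0.14 and those of ZBTB17 between -0.11 and 0.12, and the factors themselves were between -0.98 and -0.32 (IKZF1) and between 0.12 and 0.62 (ZBTB17). For both, all 4 knockout clones were further from 0 than their neighbourhoods. IKZF1, ZBTB17, NFATC2 and SATB1 were picked because their groups did not overlap, and a median over many genes varies less than 1 gene does. The comparison therefore cannot show whether the region had a part, which was not tested. SOX4 was lower in C15, S04 and S36 (-0.46, -0.44 and -0.52), where its neighbours on chromosome 6 were at -0.081, 0.40 and 0.24. The medians over all tested genes of chromosome 6 were -0.14, 0.11 and -0.047 in these clones. SATB1 exceeded its neighbours in all 4 knockout clones, by the least in S36 (0.34 against 0.21) and C15 (0.37 against 0.23).

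**Figure D5:**
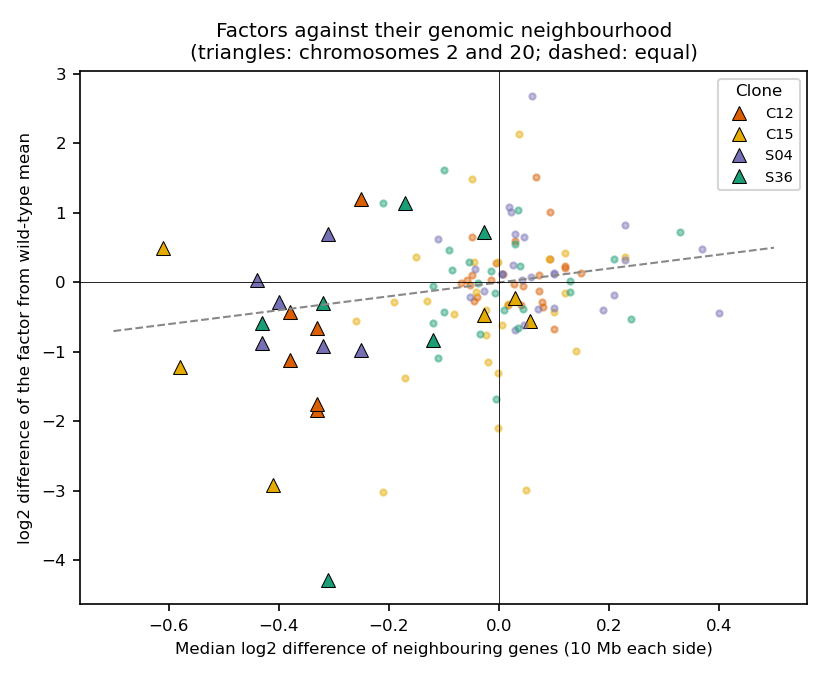
Log2 difference of each tested factor from the wild-type mean in each knockout clone, against the median log2 difference of tested genes within 10 Mb on each side. Triangles are factors on chromosomes 2 and 20, circles the others, and the dashed line marks equal values. Most triangles have neighbourhood medians between -0.25 and -0.61, and their own values run from 1.20 for ID1 in C12 to -4.28 for TOX2 in S36, the latter on 2 counts.

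Genes that work with these factors were described from 5 lists, of which 10 of 83 tested genes passed in S clones against wild type, where 9.65% of all tested genes did, and the lists were not compared with that share by a test. Of 45 relatives from the same families, 32 were tested, and in S clones 5 rose and 1 fell against wild type. NFATC3, a calcium-regulated relative of NFATC2, was at 13.9 CPM in S04 and 9.02 in S36 and at 2.26 to 2.71 in wild-type clones (log2 fold change 2.23, SE 0.25, edgeR adjusted p = 0.00389). In C12 and C15 it was at 2.82 and 2.83 CPM, and the difference between C and S clones was -2.03 (SE 0.34, adjusted p = 0.049). NFATC3 was thus high in both S clones, while NFATC2 was below the wild-type range in all 4 knockout clones. NFAT5, the tonicity-regulated member (log2 fold change 0.71), the ETS factors ETV3 (1.28) and ELK4 (0.61) and MEF2A (0.84) also rose in S clones, and ZBTB7A, a relative of ThPOK, fell by 0.58 on the log2 scale. NFATC3 and NFAT5 both lie on chromosome 16, whose tested genes had median log2 differences of -0.059 in S04 and 0.021 in S36. ETV3 and ELK4 both lie on chromosome 1 (0.043 and 0.15), and a shared local shift was not tested. With each clone left out in turn (8 fits), NFATC3 remained past the threshold in S clones in 8, with adjusted p up to 0.0267, and each of the other 5 in 3, none of which left out a wild-type clone. The NFATC3 difference between C and S clones remained past it in 1 of the 8 (adjusted p 0.0422 to 0.148).

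Of 16 tested immediate early and EGR feedback genes, JUND, an AP-1 subunit, rose in S clones (log2 fold change 0.96, SE 0.17, edgeR adjusted p = 0.0115) and SRF, a serum response factor that drives EGR1, fell by 1.00 on the log2 scale (SE 0.24, adjusted p = 0.0323). SRF was at 96.7 CPM in S04 and 65 in S36, and at 116 to 199.9 in wild-type clones. Of 12 genes of the calcineurin pathway CALM3, a calmodulin gene, fell by 0.89 on that scale (SE 0.20, adjusted p = 0.0281), and of 13 TCF and LEF partners TLE1, a Groucho co-repressor, rose by 1.22 (log2, SE 0.23, adjusted p = 0.0149). TLE1 lies on chromosome 9, whose tested genes had a median log2 difference of 0.40 in S04 and 0.35 in S36, and the part of that shift was not tested. With each clone left out in turn JUND remained past the threshold in 7 of 8 fits (not without WT30), SRF and TLE1 in 4 and CALM3 in 2, and TLE1 was at 0.76 without S04. Of 10 tested FOXO1 and KLF2 targets none passed by edgeR in any comparison. In S clones 2 had an unadjusted p under 0.05, as did 27% of all tested genes. There DESeq2 and limma-voom each called 1, and they called 13.5% and 12% of all tested genes. The median log2 fold change of these targets was -0.12 for knockout over wild type, -0.45 in C clones and 0.15 in S clones. All tested genes had medians of 0.02, -0.0098 and 0.025 in the same comparisons. In S clones the medians of the other lists were 0.22 for the relatives, 0.12 for immediate early genes, 0.028 for the calcineurin pathway and 0.082 for TCF and LEF partners. Over the 83 tested genes of the 5 lists none passed between knockout and wild-type clones by edgeR or limma-voom. DESeq2 called 5 of them, and 3.66% of all tested genes. An unadjusted p under 0.05 was found for 9 of them, and for 15.5% of all tested genes. Between C clones and wild type none passed by any of the 3 tools. There 6 had an unadjusted p under 0.05, as did 7.66% of all tested genes.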

How the data were processed

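RNA-seq of 8 RPMI-8402 clones was used as raw counts per gene, deposited by the authors in a single table. The submitters' processing notes list the build hg38 and 4 tools, namely Subread, TopHat2, SAMtools and FastQC. For versions, annotation and strand use nothing is given in the sources used here. Positions, principal transcript lengths and overlaps came from GENCODE release 29, to which 56948 of 61228 symbols matched.

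Genes were filtered with filterByExpr (minimum count 10) and scaled by TMM. Groups were compared over 14243 genes by the quasi-likelihood test of edgeR 4.0.16 (two-sided, R 4.3.3) with Benjamini-Hochberg adjustment and a threshold of 0.05. A second fit held C, S and wild-type clones. Standard errors were derived from the fold change and the test statistic. Log2 CPM used a prior count of 2. Alternatives were RLE and upper-quartile factors, other filters, DESeq2 1.42.0, limma-voom (limma 3.58.1), thinning to 2730285 counts, each clone left out, C or S clones alone, and subtraction of the chromosome median (14 factors, no test).

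The factors and gene lists were chosen with earlier results of these data known. Values in every clone were given for factors past a threshold, factors whose groups did not overlap, SOX4, and the factor of each family with the widest range over knockout clones. Others named with values of single clones were chosen after their values were seen. No 2 libraries of the same group agreed within sampling noise (chi-square per degree of freedom of at least 13.8), and pairs across the groups were not compared. Dates of culture or sequencing are not in the labels, and each p-value reflects only how these clones vary, some of which may be technical.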

Additional observations from a re-analysis of the deposited data

Results flagged for a closer look

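SOX4 in C12 stood apart from the other knockout clones, at a log2 CPM of 11.67 against 11.20 in the nearest clone, with a gap of 0.86 of the range of the 4 clones. It was singled out as a clone far from the rest of its group of 4. This was 1 of 64 groups examined (32 factors in knockout and in wild-type clones), where chance gives about 3.2.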

How the results depend on the processing

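C15 has the smallest library and limits low factors there, and each letter has 2 clones. Of 42 log2 fold changes (31 of factors, 11 of genes of the lists) under 652 tested alternatives, 538 kept direction and side of the threshold, 37 moved past it, 65 no longer passed it (8 of ZBTB17 and 57 of list genes) and 12 reversed. Of the 31 factor values only ZBTB17 in S clones passed in the main fit, and it stayed past the threshold in 7 alternatives and lost it in 8. For the other factor values a kept side means that they still did not pass. With the chromosome median subtracted, a value with no test, 14 of 14 kept their direction. Counts of factors past the threshold follow with the share of all genes tested in the same fit. The main fits tested 32 factors, those without a low-count filter 38 and those with thinned libraries 26, so these counts are not over the same factors. Between knockout and wild type the count was 0 and became 2 without a low-count filter (TCF4 and TOX2, 1.85%), 2 with DESeq2 (3.66%) and 5 with S clones alone (14.5%). For S clones against wild type it was 1 and became 5 without a filter (7.23%), 3 with DESeq2 (13.5%), 0 with thinned libraries (6.82%) and 0 to 5 with a clone left out (2.05% to 14.8%). For C clones against wild type it was 0 and became 4 without a filter (0.827%), 1 with DESeq2 (0.562%) and 0 to 2 with a clone left out (up to 1.19%). For C against S clones it was 0 and became 5 without a filter (2.43%), 3 with DESeq2 (4.57%) and 0 to 3 with a clone left out (up to 5.14%). ZBTB17 in S clones missed the threshold at 0.53 without a filter and 0.59 with thinned libraries, and had log2 fold changes of 0.55 to 0.62 with a clone left out. For knockout against wild type, BCL11A turned to 0.09 with S clones alone. ETS1 turned to -0.43 with C clones alone and ran from -0.066 to 0.40 with a clone left out. ZBTB16 was -0.14 by limma-voom, -1.28 with S clones alone and -0.61 to 0.46 with a clone left out. KLF2 was -0.03 with C clones alone and -0.20 to 1.49 with a clone left out. In S clones, TCF4 ran from -0.18 to 0.98 and KLF2 from -0.45 to 2.63 with a clone left out. Where reversals or lost calls follow from fewer clones, those fits hold fewer samples, and otherwise the cause was not tested. No paired analysis was possible because the groups share no replicate numbers.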
